A study of Mus musculus with 8 samples.

Results

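Cerebellins, neurexins and neuroligins are synaptic organizers, proteins that hold both sides of a synapse in register. Neurexins sit on the presynaptic membrane and bind neuroligins on the facing membrane. Cerebellins are small secreted proteins of the C1q family that bridge presynaptic neurexins to postsynaptic receptors, and cerebellin 1 is best known from cerebellar synapses. In the striatum these families lie at cortical and thalamic excitatory inputs and at the inhibitory contacts between projection neurons. The 9 genes described here, Cbln1, Cbln2, Cbln3, Cbln4, Nrxn2, Nrxn3, Nlgn1, Nlgn2 and Nlgn3, were taken by symbol from the 32531 genes counted in each library, and all 9 were found.

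The libraries hold RNA bound to tagged ribosomes from the dorsal striatum (4 libraries) and the nucleus accumbens (4 libraries) of untreated mice aged beyond 20 months. Both groups carried the Drd1-EGFP/Rpl10a (CP73) transgene, in which the Drd1 (dopamine D1 receptor) promoter drives a fluorescent ribosomal protein, and polysomes were pulled down with antibodies to the tag. The transgene reports cells that use that promoter, so the libraries stand for D1 receptor cells of each region as far as the pull-down is clean, and enrichment over unpurified tissue was not measured here. The labels state neither sex nor how many animals went into a library. The p-values therefore rest on the spread among these 8 libraries, part of which may be technical.

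The accumbens libraries were deeper, with 10831937 to 12639641 gene counts each, than the dorsal libraries, with 7466970 to 10363145. Levels are given in CPM, reads per gene scaled to a common library size by the TMM method. The 6 direct-pathway marker genes summed to between 1152 and 1382 CPM in dorsal striatum and to between 1156 and 1429 CPM in accumbens, with a median log2 fold change of -0.36. Of the 6, Pdyn was called higher in accumbens, where called means an edgeR p under 0.05 after adjustment over all tested genes. Drd1, whose promoter drives the tag, averaged 435 ± 86.5 CPM in accumbens against 605 ± 60.9 CPM in dorsal striatum (SD, n = 4 each), with a log2 fold change of -0.47 that was not called (edgeR adjusted p = 0.0750). The 6 markers of indirect-pathway neurons, which the promoter is not meant to tag, summed to between 223 and 333 CPM in dorsal striatum and to between 628 and 908 CPM in accumbens, without overlap, and 3 of them were called higher. The 6 markers shared by all projection neurons summed to between 7384 and 8691 CPM in dorsal striatum and to between 4618 and 5182 CPM in accumbens, and 5 of them were called lower. Astrocyte markers ran from 190 to 354 CPM in dorsal striatum and from 244 to 678 CPM in accumbens, with 1 of 6 tested called higher. Over all 12467 tested genes, 1.6% were called higher in accumbens and 2.12% lower. The 8 microglial markers summed to between 4.80 and 17.05 CPM in accumbens and to less in every dorsal library, and C1qa was at 0 in all libraries. Because these are bulk libraries, fewer cells of a type and less RNA per cell cannot be told apart.

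The members lie apart on the genome, and their counts come from different loci. In the GENCODE M21 annotation of GRCm38, which shares coordinates with mm10, Cbln4 lies on the minus strand of chromosome 2, 172036233 to 172043466, and Nlgn1 on the minus strand of chromosome 3, 25426215 to 26332460. No exon of a cerebellin or of Nlgn2 overlaps another gene. Exons of Nlgn1, Nrxn2 and Nrxn3 overlap genes on the opposite strand, and those of Nlgn3 overlap a predicted gene on the same strand. The strand setting of the counting was not given in the sources used here, so for these 4 genes reads of an overlapping gene may have been added or shared reads dropped.

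Since the results turn on a difference between paralogs, the coding stretch around the longest run that Cbln1 and Cbln4 share is shown from the GENCODE M21 transcripts, with differing bases in capitals. The stretch covers coding bases 64 to 125 of Cbln1 and 73 to 134 of Cbln4, counted from the first base of the start codon.
Cbln1: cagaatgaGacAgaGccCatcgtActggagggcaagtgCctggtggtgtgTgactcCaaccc
Cbln4: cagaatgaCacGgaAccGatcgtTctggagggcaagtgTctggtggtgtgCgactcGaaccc
They differ at 8 of 62 bases, and the longest run of identical bases between the coding sequences of Cbln1 and Cbln4 is 14. Between any 2 cerebellins that run reached at most 21 bases, for Cbln1 and Cbln3 and for Cbln2 and Cbln4. Those pairs are not shown. It was 23 bases for the neurexin pair and at most 23 bases among the neuroligins.

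Cbln4, a secreted cerebellin reported to bind neurexins and the netrin receptor Dcc, was the member with the largest fitted difference between regions among the 7 that passed the filter on low counts. Its raw counts were 63, 28, 0 and 34 in dorsal libraries 1 to 4 and 181, 453, 252 and 191 in accumbens libraries 1 to 4. On the CPM scale these are levels of 7.45, 2.97, 0 and 3.35 in dorsal striatum and of 16.2, 38.6, 19.9 and 15.8 in accumbens. Every accumbens library lay above every dorsal library, with accumbens 2 the highest and dorsal 3 without a read. The 0 in dorsal 3 allows a level of up to 0.402 CPM (3 counts of that library's total, counting error only). The group levels were 3.44 ± 3.06 CPM and 22.7 ± 10.8 CPM (SD, n = 4 each). On the log2 scale the fold change, accumbens over dorsal striatum, was 2.70 ± 0.66 SE (edgeR quasi-likelihood test, Benjamini-Hochberg adjusted p over all genes = 0.0252).

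The size of the Cbln4 difference rested on few dorsal reads. Its log2 fold change was 3.38 without dorsal 1, the dorsal library with the most Cbln4 reads, and 2.31 without dorsal 3. The call was lost without dorsal 2 (edgeR adjusted p = 0.0730), dorsal 4 (0.0806) or accumbens 2 (0.0918) and with DESeq2 (0.0936). It was also lost with glial marker level, which largely follows region, as a covariate (log2 fold change 2.60 ± 0.95 SE, edgeR adjusted p = 0.360). All are from fits over all genes.

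Markers of another striatal cell type were read beside Cbln4. The 8 GABA interneuron markers summed to 84.6, 137, 36.2 and 57.9 CPM in dorsal libraries 1 to 4 and to 142, 164, 124 and 72.9 CPM in accumbens libraries 1 to 4, so the regions overlapped. Dorsal 3, which had no Cbln4 read, had the lowest of these sums, and accumbens 2, with the most Cbln4, the highest. In accumbens 2, however, Cck alone made up 63.8% of the sum, at 105 CPM. Without Cck, a comparison added after the values were seen, the other 7 markers summed to 59.5 CPM in accumbens 2, below accumbens 1 (92.4), accumbens 3 (84.1) and dorsal 2 (76.7), and dorsal 3 was still the lowest at 32.2. Of the 8 markers, 4 were tested and all 4 had log2 fold changes above 0, with 0 called by edgeR, DESeq2 or limma-voom and 0 at an unadjusted p under 0.05. Sst, which encodes somatostatin, was at 34.2, 39.8, 18.95 and 38.4 CPM in dorsal libraries 1 to 4 and at 56.5, 42.1, 57.1 and 30.4 CPM in accumbens libraries 1 to 4. The part of interneuron RNA, or of the higher indirect-pathway signal in accumbens, in the Cbln4 difference was not tested.

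**Figure D1:**
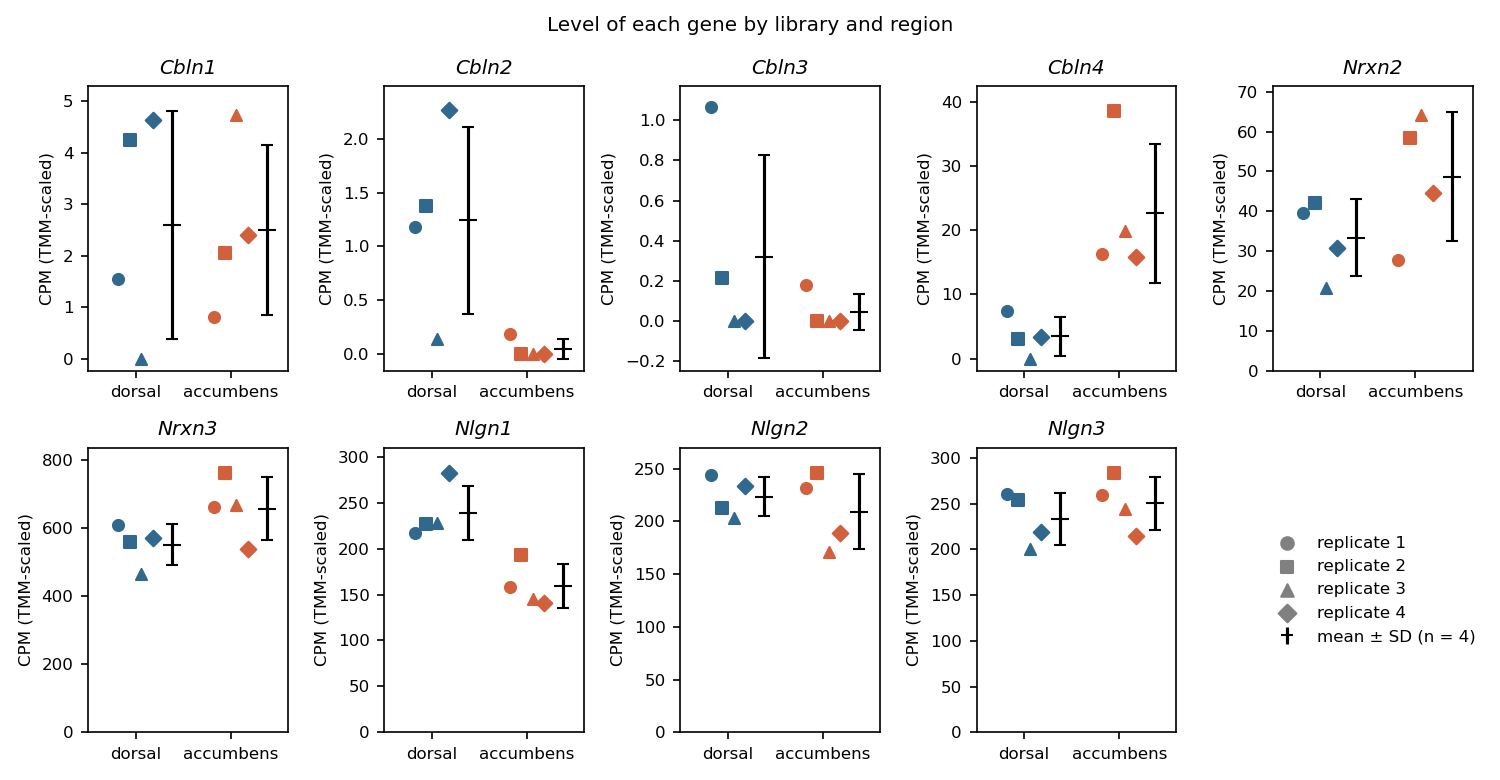
Level of each of the 9 genes in CPM (vertical axis, scaled by TMM, each panel with its own range) in the 4 dorsal striatum libraries (blue) and the 4 accumbens libraries (orange); symbols mark the replicate number and black bars the mean ± SD. Cbln4 and Nlgn1 are the tested genes whose regions do not overlap, and dorsal 3 has no read of Cbln1, Cbln3 or Cbln4.

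Cbln1, the founding member, known from cerebellar granule cells, was low in both regions. Its counts were 13, 40, 0 and 47 in the dorsal libraries and 9, 24, 60 and 29 in the accumbens libraries. Both regions spanned about the same range, 0 to 4.63 CPM in dorsal striatum and 0.807 to 4.74 CPM in accumbens. The log2 fold change was -0.07 ± 0.95 SE (edgeR adjusted p = 0.989), and the sign turned in 7 of 18 alternative fits. An error this wide leaves a difference in either direction possible.

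Cbln2, a close relative of Cbln1 found in forebrain and thalamic neurons, had most of its reads in dorsal striatum, but it fell below the filter on low counts and has no test in the main fit. The dorsal libraries held 10, 13, 1 and 23 reads, and the accumbens libraries 2, 0, 0 and 0. Dorsal 1, 2 and 4 lay above all accumbens libraries, while dorsal 3, at 0.138 CPM, lay below accumbens 1, at 0.179 CPM. Summed over libraries, 47 dorsal reads against 2 accumbens reads give a dorsal level 30.8 times the accumbens level per gene count (95% exact interval 8.06 to 262, counting error only). Fitted by edgeR without the filter, the log2 fold change was -4.51 and was not called (edgeR adjusted p = 0.185, DESeq2 adjusted p = 0.0826).

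Cbln3, known from cerebellar granule cells, was close to absent. It had 11 reads over the dorsal libraries, 9 of them in dorsal 1, and 2 reads over the accumbens libraries, both in accumbens 1. Of 4 markers of cerebellar granule cells, Gabra6 and Barhl1 were at 0 in all libraries and Neurod1 reached at most 0.106 CPM. Zic1 ran from 0 to 11.5 CPM in dorsal striatum, with dorsal 4 the highest and dorsal 3 at 0, and from 1.45 to 3.15 CPM in accumbens, and was not called.

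Within the cerebellins, Cbln4 held a larger share in every accumbens library than in the dorsal libraries with cerebellin reads to divide. Per kb of exon, Cbln4 made up 69.4%, 34.8% and 33.3% of the cerebellin reads in dorsal 1, 2 and 4, and 93.9%, 95.2%, 81.5% and 87.3% in accumbens 1 to 4. The ranges did not overlap. Cbln1 held 13.7%, 47.5% and 44.0% in the same 3 dorsal libraries and 4.46% to 18.5% in accumbens, and the ranges overlapped. Dorsal 3 had 1 cerebellin read in all, of Cbln2, against 83 to 104 in the other dorsal libraries and 194 to 477 in the accumbens libraries, and was left out of the shares. The shares are ratios within a library and carry no test.

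**Figure D2:**
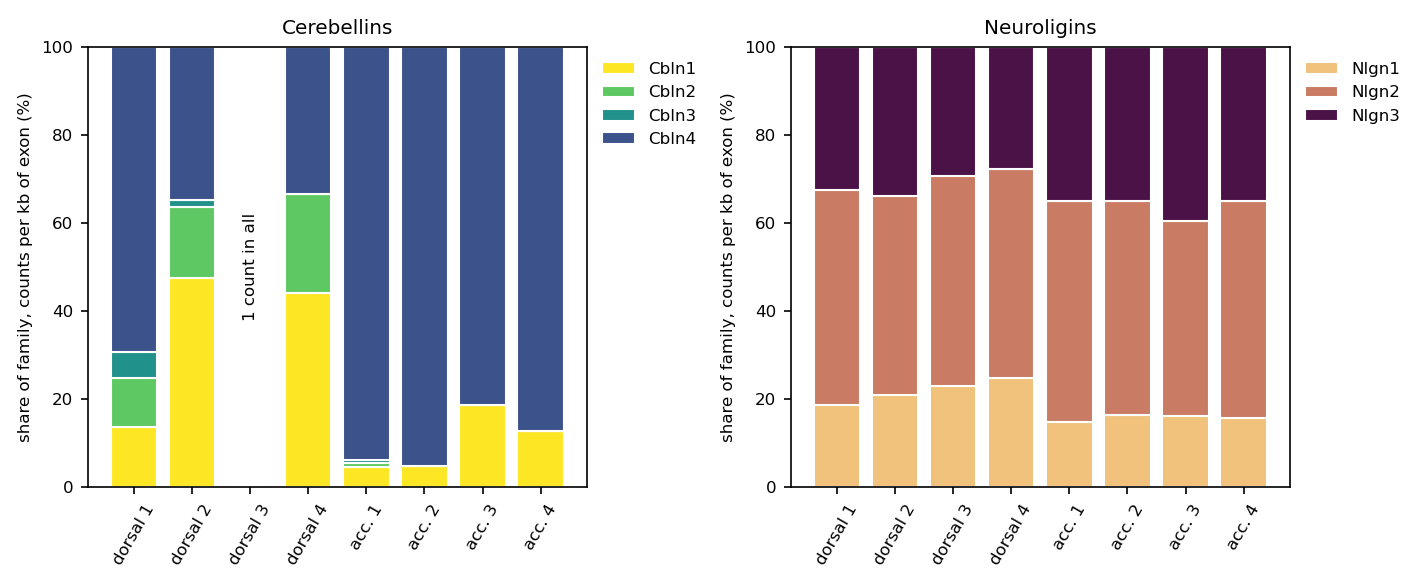
Share of each cerebellin (left) and each neuroligin (right) in its family's counts per kb of exon, in percent (vertical axis), for each of the 8 libraries (horizontal axis; acc., accumbens). Cbln4 takes 81.5% to 95.2% of the cerebellins in accumbens and at most 69.4% in dorsal striatum, and Nlgn1 takes 14.8% to 16.4% of the neuroligins in accumbens and 18.7% to 24.7% in dorsal striatum.

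The neurexins were led by Nrxn3, whose levels were 611, 559, 467 and 572 CPM in dorsal libraries 1 to 4 and 664, 762, 670 and 539 CPM in accumbens libraries 1 to 4. Accumbens 4 lay below 3 of the dorsal libraries. The means were 553 ± 60.9 and 659 ± 91.4 CPM (SD, n = 4 each), and the log2 fold change of 0.25 ± 0.13 SE was not called (edgeR adjusted p = 0.381). Nrxn2 was far lower, at 39.6, 42.1, 20.9 and 30.8 CPM in dorsal striatum and 27.7, 58.3, 64.2 and 44.6 CPM in accumbens. Its 3 highest libraries were accumbens 2, 3 and 4, but accumbens 1 lay below 3 dorsal libraries, and the log2 fold change of 0.54 ± 0.28 SE was not called (adjusted p = 0.384). Counts per gene do not separate the long alpha from the short beta neurexins, nor the spliced insert on which binding of cerebellins depends.

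Among the neuroligins, Nlgn1, which sits mainly at excitatory synapses, was lower in accumbens. It was at 217, 226, 228 and 282 CPM in dorsal libraries 1 to 4 and at 158, 193, 145 and 140.2 CPM in accumbens libraries 1 to 4. No accumbens library reached any dorsal library, and dorsal 4 stood above the rest of its group. The means were 238 ± 29.4 and 159 ± 23.7 CPM (SD, n = 4 each), and the log2 fold change was -0.58 ± 0.14 SE (edgeR adjusted p = 0.0285). The call lay close to the threshold and was lost without dorsal 2 (adjusted p = 0.0547), dorsal 3 (0.0551), dorsal 4 (0.101), accumbens 1 (0.0834), accumbens 3 (0.0989) or accumbens 4 (0.103), with log2 fold changes from -0.69 to -0.49 over the 8 fits that each leave out 1 library. With the glial marker covariate, which largely follows region, the log2 fold change was -0.50 ± 0.19 SE (edgeR adjusted p = 0.422). The markers shared by all projection neurons fell in the same direction, with log2 fold changes whose median was -0.76, and their part in the Nlgn1 difference was not tested.

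Nlgn2, the neuroligin of inhibitory synapses, was at 244, 213, 203 and 233 CPM in dorsal striatum and 232, 245, 171 and 189 CPM in accumbens. The regions overlapped and the log2 fold change was -0.09 ± 0.14 SE (edgeR adjusted p = 0.839). Nlgn3, found at both kinds of synapse, was at 261, 254, 201 and 219 CPM in dorsal striatum and 259, 283, 244 and 215 CPM in accumbens, also overlapping, and its log2 fold change was 0.10 ± 0.14 SE (edgeR adjusted p = 0.818). Whether the difference of Nlgn1 departs from those of Nlgn2 and Nlgn3 was not tested. As a ratio within libraries, Nlgn1 made up 18.7%, 20.8%, 23.0% and 24.7% of neuroligin counts per kb of exon in the dorsal libraries and 14.8%, 16.4%, 16.2% and 15.8% in the accumbens libraries. These did not overlap, and neither did the shares of Nlgn3, at 27.8% to 33.8% in dorsal striatum and 34.9% to 39.5% in accumbens. Shares within a library add up to the whole, so the Nlgn3 share is not independent of the lower Nlgn1 share. The Nlgn2 share overlapped, at 47.3% ± 1.43 and 48.1% ± 2.61 (SD, n = 4 each).

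Of the 9 members, 7 passed the filter. Cbln4 was called higher in accumbens and Nlgn1 lower, 1 member each way, where 1.6% of all 12467 tested genes were called higher, 2.12% lower and 3.72% in either direction. The regions did not overlap for the same 2 of 7 members, against 9.69% of all tested genes, 4.51% with accumbens above and 5.18% with dorsal striatum above. The median log2 fold change of the 7 was 0.10, and that of all tested genes 0.02.

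Ordered by level per kb of exon over all 8 libraries, Nrxn3 came first, at a mean of 48.05 CPM per kb, followed by Nlgn2 (37.4), Nlgn3 (26.1), Nlgn1 (14.8), Cbln4 (4.50), Nrxn2 (2.97), Cbln1 (0.840), Cbln2 (0.222) and Cbln3 (0.0374). Nrxn3 and Nlgn2 were within their spread in dorsal striatum, at 43.8 ± 4.83 and 38.6 ± 3.23 CPM per kb (SD, n = 4 each). The order of Cbln4 and Nrxn2 differed between regions, with Cbln4 at 1.19 ± 1.06 and Nrxn2 at 2.42 ± 0.697 CPM per kb in dorsal striatum, and 7.81 ± 3.73 and 3.53 ± 1.17 in accumbens. Over coding length in place of all exons, Nlgn3 (95.4 CPM per kb), Nlgn2 (86.3) and Nlgn1 (78.5) lay closer together and in another order. Nlgn1 has 13422 bases of annotated exon and 2529 of coding sequence, so the order among neuroligins depends on the length used.

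The patterns most like those of the called members over the 8 libraries were sought among 9478 other tested genes averaging at least 5 CPM, leaving out symbols that start with Gm or end in Rik. For Cbln4 they were Fam196b (Pearson r = 0.975 of log2 CPM), Dpp10 (0.974), an auxiliary subunit of Kv4 potassium channels, and Nol12 (0.973). Fam196b averaged 21.8 CPM in accumbens against 5.29 CPM in dorsal striatum, and its log2 fold change of 2.03 was not called (edgeR adjusted p = 0.0568). Dpp10 was called higher in accumbens (0.86, adjusted p = 0.0297). For Nlgn1 they included Anks1b (0.987), which encodes a postsynaptic density protein, and Zmat3 (0.987), both called lower in accumbens, with log2 fold changes of -0.63 (adjusted p = 0.00288) and -0.61 (0.00840). The libraries share region and depth in these correlations, which are descriptions with n = 8.

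The partners of these families were read from 8 lists of 68 genes, of which 63 were tested. Across them 3 genes were called higher in accumbens and 2 lower, 7.94% of the 63, against 3.72% of all tested genes. The median log2 fold change was 0.05, against 0.02 over all tested genes. The lists were chosen with earlier results of these data known, so these shares are descriptions. An unadjusted edgeR p under 0.05 was reached by 24 of the 63, and by fewer than 2148 of all 12467 tested genes. That upper bound is the rank by p of Nrxn3, whose unadjusted edgeR p was 0.0657, and the exact number is not given. DESeq2 called 7 partners and limma-voom 6, against 793 of 13762 and 520 of 12467 genes over the whole series.

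Of 4 cerebellin receptors other than neurexins, 0 were called by edgeR or limma-voom, 2 had an unadjusted p under 0.05, and DESeq2 called 1, Neo1. The netrin receptor Dcc averaged 134 ± 9.30 CPM in dorsal striatum against 107 ± 10.2 CPM in accumbens, and its relative Neo1 averaged 79.6 ± 8.87 against 114 ± 14.1 CPM (SD, n = 4 each). Neither pair of regions overlapped, and the edgeR adjusted p were 0.302 and 0.0898 (DESeq2 0.0268 for Neo1). Grid1, which encodes a receptor that cerebellins bind, was at 38.5 ± 9.58 CPM and 39.9 ± 2.78 CPM (SD, n = 4 each), with regions that overlapped. The related ligand C1ql3 was low, with means of 1.16 CPM (dorsal striatum) and 1.33 CPM (accumbens), and was called by none of edgeR (adjusted p = 0.973), DESeq2 or limma-voom. C1ql1 and C1ql2 stayed under the filter, and C1ql4 had no read in any library.

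Among 12 other ligands of neurexins, 4 had an unadjusted edgeR p under 0.05, DESeq2 called 2 and limma-voom 1. By edgeR 1 was called, Lrrtm2, a leucine-rich repeat protein of excitatory synapses. It was at 123, 129, 96.4 and 116 CPM in dorsal libraries 1 to 4 and 70.5, 91.7, 73.7 and 61.9 CPM in accumbens libraries 1 to 4, without overlap (log2 fold change -0.64 ± 0.17 SE, edgeR adjusted p = 0.0405). It kept its call only without dorsal 3 or accumbens 2 among the fits that leave out 1 library, with adjusted p of 0.121 without dorsal 1, 0.129 without dorsal 2, 0.0865 without dorsal 4, 0.113 without accumbens 1, 0.0991 without accumbens 3 and 0.128 without accumbens 4. With the glial marker covariate the adjusted p was 0.172, at a log2 fold change of -0.73. An exon of Lrrtm2 overlaps Ctnna1 on the opposite strand. The most abundant of these ligands, the latrophilin Adgrl1 and the calsyntenin Clstn1, had log2 fold changes of -0.04 ± 0.13 and 0.26 ± 0.16 SE and were not called (adjusted p = 0.945 and 0.523).

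Of 9 postsynaptic scaffold genes of neuroligins, 1 was called lower in accumbens and 0 higher. DESeq2 and limma-voom also called 1 each, and 4 had an unadjusted edgeR p under 0.05. The excitatory scaffolds Dlg2 and Dlg4 were not called (log2 fold changes -0.37 ± 0.12 SE, edgeR adjusted p = 0.119, and 0.12 ± 0.12 SE, 0.739). Of 7 presynaptic scaffold genes edgeR, DESeq2 and limma-voom called 0, with 4 at an unadjusted p under 0.05. The most abundant were Lin7c (-0.26 ± 0.16 SE) and Lin7a (0.47 ± 0.17 SE). Of 6 tested secreted or cis modifiers the same 3 tools called 0, with 1 at an unadjusted p under 0.05, and Mdga2, which binds neuroligins in cis, had a log2 fold change of -0.21 ± 0.17 SE.

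The splicing regulators of neurexins held the partner with the largest called difference. Khdrbs2, an RNA-binding protein of the STAR family, was at most 19.3 CPM in dorsal striatum, with a mean of 15.5 ± 3.42 CPM, and reached 25.03, 63.7, 42.3 and 47.7 CPM in accumbens libraries 1 to 4, a mean of 44.7 ± 15.95 CPM (SD, n = 4 each). All accumbens libraries lay above all dorsal libraries, and the log2 fold change was 1.53 ± 0.29 SE (edgeR adjusted p = 0.00441). Its relatives Khdrbs1 and Khdrbs3 were not called (0.20 ± 0.18 SE, adjusted p = 0.696, and -0.27 ± 0.19 SE, 0.590).

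Among 21 tested organizers of other families, 8 had an unadjusted edgeR p under 0.05, DESeq2 called 2 and limma-voom 3. By edgeR 2 were called, both teneurins, large proteins that bind latrophilins across the synapse. Tenm1 rose from 51.8 ± 8.35 to 99.8 ± 8.80 CPM and Tenm4 from 76.3 ± 14.2 to 146 ± 24.7 CPM (SD, n = 4 each), with log2 fold changes of 0.94 ± 0.17 and 0.93 ± 0.17 SE (edgeR adjusted p = 0.00340 and 0.00365). Both kept their calls with each library left out, as Khdrbs2 did. With the glial marker covariate Khdrbs2 was called (adjusted p = 0.0429), and Tenm1 and Tenm4 were not (0.0697 and 0.118), at log2 fold changes of 0.97 and 0.82. Exons of Tenm1 and Tenm4 overlap genes on the opposite strand. Tenm3, more abundant, was not called (0.18 ± 0.12 SE, adjusted p = 0.559).

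**Figure D3:**
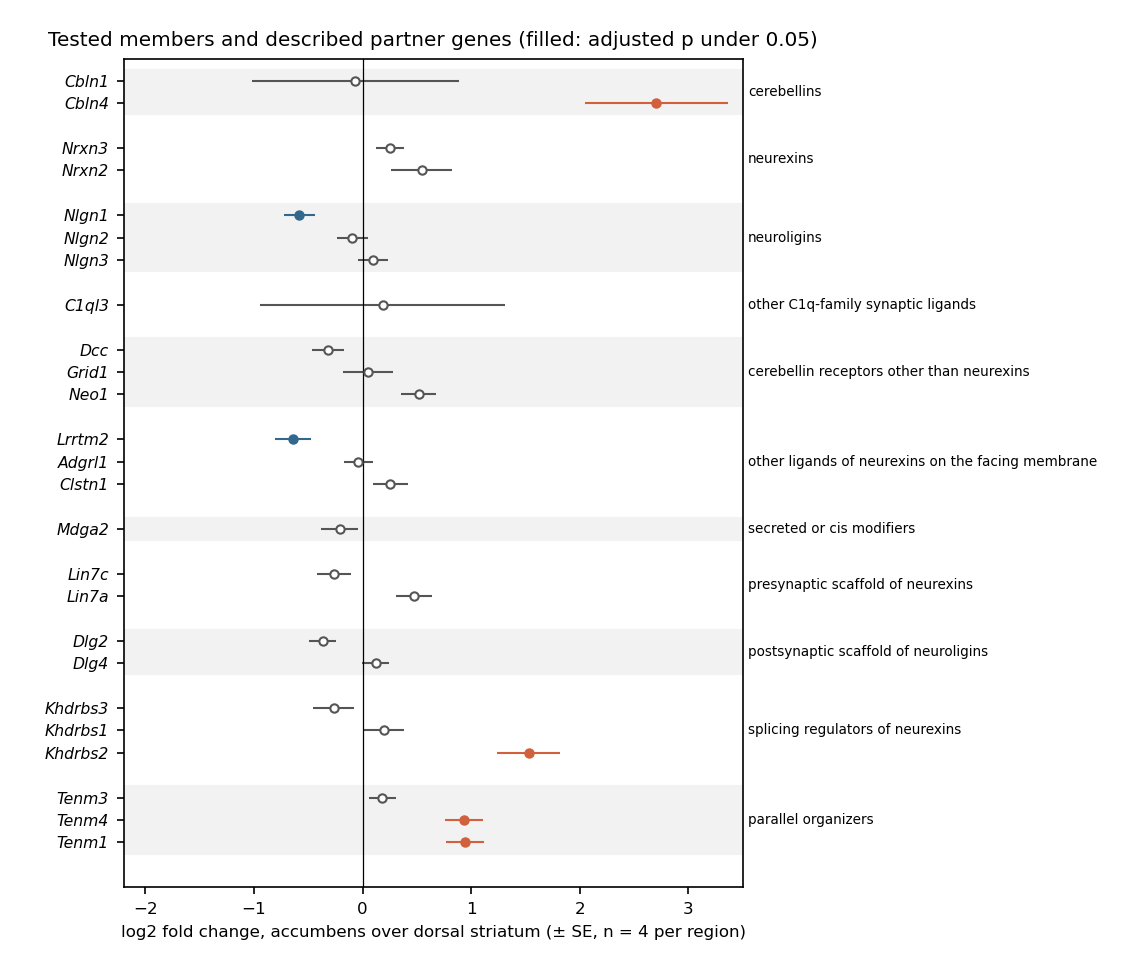
Log2 fold change, accumbens over dorsal striatum (horizontal axis), with its standard error for the 7 tested members and the 18 partner genes described, grouped by role; filled points passed an adjusted p under 0.05 (orange, higher in accumbens; blue, lower). Cbln4, at 2.70, lies farthest from 0 of the genes shown, and 4 partner genes are filled.

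**Figure D4:**
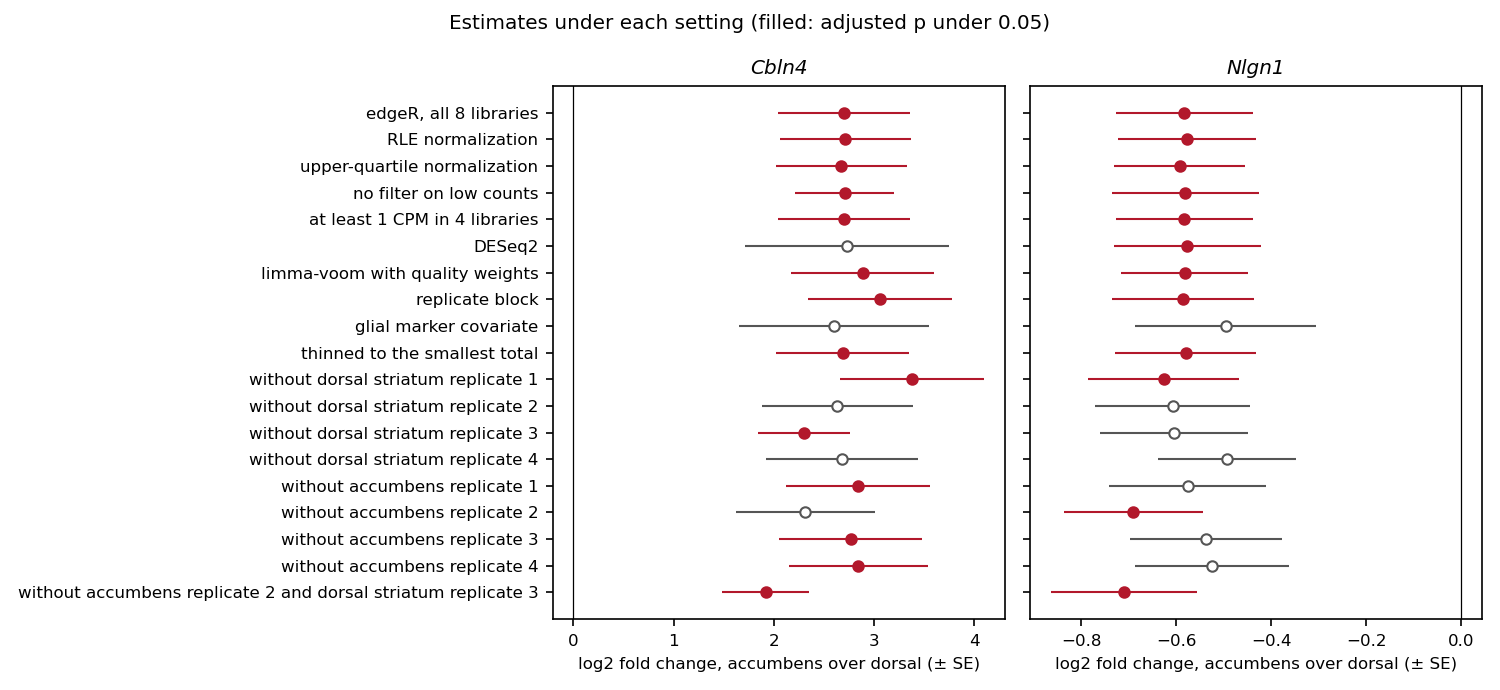
Log2 fold change, accumbens over dorsal striatum (horizontal axis), with its standard error for Cbln4 and Nlgn1 under each fit (vertical axis); filled points passed an adjusted p under 0.05 over all genes of that fit. Estimates keep their sign in all fits, while the calls are lost in 5 fits for Cbln4 and 7 for Nlgn1.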

How the data were processed

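Each library has a deposited table of unnormalized read counts by gene symbol. The submitters' processing notes name STAR 2.0.0e, HTSeq and the mm10 build. Annotation and strand setting are not given in the sources used here. Rows for reads assigned to no gene, 27.1% to 40.6% of each table's total, stayed out of library sizes. Libraries were grouped by title.

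Genes kept by filterByExpr (minimum count 10) were normalized by TMM and compared between regions by the quasi-likelihood test of edgeR 4.0.16 (R 4.3.3), region being the only term, with Benjamini-Hochberg adjustment over 12467 genes and a threshold of 0.05. The fit was tested on simulated data. Standard errors were derived from the F statistics. Correlations used log2 CPM with a prior of 2 counts. Lengths are unions of GENCODE M21 exons. A count of 3 corresponds to 0.237 to 0.402 CPM. All pairs of libraries differed by more than sampling noise. Alternatives used other normalizations and filters, DESeq2 1.42.0, limma-voom (limma 3.58.1), a block for replicate number, the mean of 12 glial markers as a covariate, thinned libraries, left-out libraries and other gene lengths.

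Members and lists were chosen with earlier results of these data known. Named partners are the called genes of each list and the 2 others of highest mean CPM. Values of Grid1, C1ql1, C1ql2, C1ql4, Sst, Cck, Drd1, Pdyn, Zic1 and Neurod1 were added after they were seen. So were the sums of the cortical or thalamic markers. Some genes that these rules took are not reported here.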

Additional observations from a re-analysis of the deposited data

Results flagged for a closer look

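The level of Nlgn1 in dorsal 4 was 282 CPM, against 217 to 228 CPM in the other dorsal libraries, a gap of 0.837 of the group's range, past the 95% limit of Dixon's test for 4 samples. Of 56 gene and region groups checked, 1 stood out in this way, and chance gives about 1 in 20. Without dorsal 4 the log2 fold change of Nlgn1 was -0.49 (edgeR adjusted p = 0.101).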

How the results depend on the processing

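Over 486 combinations of a gene and an alternative fit, 436 kept direction and call, 30 lost the call, 1 gained it and 19 turned in sign. The labels do not state whether libraries with the same replicate number share an animal, and correlations this close to 0 cannot decide it. Deviations from the group means of same-numbered libraries correlated at 0.0140, -0.0811, -0.0433 and -0.0352, and no library correlated best with its own number. With the replicate block 432 genes were called, against 464 without it. The block changed the sign of Cbln1 (0.0036) and no call among the genes described.

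The number of genes called was 793 with DESeq2, 123 with the glial marker covariate and 324 to 411 with 1 library left out. The glial marker level was -0.318, 0.480, -0.623 and -1.02 in dorsal libraries 1 to 4 (centred log2 CPM). In accumbens libraries 1 to 4 it was 0.769, 0.370, 0.0366 and 0.301. Only dorsal 2 lay within the accumbens range, so the covariate largely follows region and that fit cannot fully separate them. With it the SE went from 0.66 to 0.95 for Cbln4 and from 0.14 to 0.19 for Nlgn1. Signs turned only for genes not called. Under the covariate, log2 fold changes were 0.049 for Cbln1, -0.032 for Nlgn3, -1.503 for C1ql3, 0.094 for Lin7c and -0.078 for Khdrbs1. Cbln1 was at 0.019 with limma-voom. C1ql3 was at -0.018 in thinned libraries. With 1 library left out, or both accumbens 2 and dorsal 3, Cbln1 ran from -0.56 to 0.36, C1ql3 from -0.66 to 1.34, Nlgn3 from -0.032 to 0.17 and Adgrl1 from -0.16 to 0.040. Without those 2 libraries Cbln4 was at 1.92 (edgeR adjusted p = 0.0265). The cause of these turns was not tested. Over coding length the mean Nlgn1 share of the neuroligins was 34.2% in dorsal striatum and 25.6% in accumbens, and over the longest transcript 16.8% in accumbens, against 21.8% and 15.8% over all exons. Depth limits Cbln2 and Cbln3, which had fewer than 10 reads in most libraries.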

Other observations

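Across the 8 libraries, log2 CPM of Nrxn3 correlated most, among the tested members, with Nlgn3 (Pearson r = 0.865) and Cbln4 (0.855). For Nlgn1 the values were -0.144 with Nlgn3 and -0.588 with Cbln4. Cbln4 and Nrxn2 had r = 0.767. Nlgn2 and Nlgn3, whose regions overlapped, had r = 0.478. These are descriptions over libraries that share region and depth. The cerebellin reads of dorsal 3 were few for its size, 1 of 7466970 gene counts, while its Nlgn1, Nlgn2 and Nlgn3 counts were 1645, 1470 and 1452.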
